A study of Rattus norvegicus with 9 samples.

Results

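The control serum miRNA profile of this rat study is described from the 3 libraries of the Control group, taken as all samples whose titles name that group, out of 9 libraries in the series. The libraries hold small RNA from the serum of adult male Wistar rats of wildtype genotype, and no source says whether a library is 1 animal. In the study, early and late groups received rotenone, an inhibitor of mitochondrial complex I, at a daily dose of 2 mg per kg, over 10 days or over more than 40 days, as a model of Parkinson's disease. They are not described here. The treatment label reads alike on Control and rotenone samples, and the agent or vehicle given to Control rats is not stated. The files list 567 mature miRNAs, and all were kept. With 1 group of 3 libraries no groups were compared and no test was made. The values are levels within each library and their spread over libraries.

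miRNAs are short RNAs cut from hairpin precursors by the nucleases Drosha and Dicer. Each hairpin can give a product from its 5p arm and another from its 3p arm, and usually 1 of them is loaded into an Argonaute protein and kept. Target choice rests mainly on the seed, bases 2 to 8 of the mature miRNA. In serum miRNAs circulate bound to proteins or inside vesicles, and they come from blood cells, platelets, the vessel wall and solid organs. Clotting lets platelets and other blood cells release miRNAs into serum. Liver, muscle and heart miRNAs in blood are widely used as markers of leakage from those tissues.

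The sequences below are those of the miRNAs that carried most of the counts, with the seed in capitals. They were matched by name to RefSeq (assembly GRCr8), which held 513 of the 567 miRNAs and, for the matched ones, 94.9%, 97.2% and 95.3% of the counts of Control 1, Control 2 and Control 3.
miR-122-5p: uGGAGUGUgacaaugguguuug
miR-16-5p: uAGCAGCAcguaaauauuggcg
miR-21-5p: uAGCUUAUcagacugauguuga
miR-191a-5p: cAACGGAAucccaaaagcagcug
miR-199a-3p: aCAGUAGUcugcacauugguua
miR-140-3p: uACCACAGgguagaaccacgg
miR-29a-3p: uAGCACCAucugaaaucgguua
miR-146a-5p: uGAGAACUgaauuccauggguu
miR-143-3p: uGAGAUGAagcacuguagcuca
let-7c-5p: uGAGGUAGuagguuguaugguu

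Most of these sequences start with U and are 22 bases long. Of the matched miRNAs, 193 (37.6%) began with U, but they held 77.7%, 86.0% and 79.9% of the counts of matched miRNAs in the 3 libraries, and 38 of the 50 most abundant began with U. Those of 22 bases were 47.8% of the matched miRNAs and held 70.1%, 79.1% and 69.6% of these counts. A 5′ U is a known preference of Argonaute proteins.

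The libraries held 1108167, 1171056 and 1539557 counts. Levels are given as CPM, a miRNA's counts per 1000000 counts of its library. A single count stood for 0.902, 0.854 and 0.650 CPM in Control 1, 2 and 3. Because reads were counted with no sign in the sources that duplicates were collapsed, intervals cover counting error only. At least 10 counts were seen for 317, 267 and 331 miRNAs, or 317, 266 and 306 after thinning each library at random to the smallest total. Control 2 was lowest in both. No count was seen in any library for 45 of the 567, and 386 had a count in all 3.

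A few miRNAs made up most of each profile. The most abundant took 16.5% of counts in Control 1, 44.3% in Control 2 and 17.8% in Control 3, and the 10 most abundant took 54.2%, 73.8% and 56.6%. It took 9, 3 and 8 miRNAs to reach 50% of counts. Without miR-122-5p the libraries were alike in this: the 10 most abundant took 55.5%, 55.2% and 56.9%, and 9, 9 and 8 miRNAs reached 50%. At the other end, 74 miRNAs had a mean of at least 1000 CPM.

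miR-122-5p, the liver's most abundant miRNA, and miR-16-5p, which is abundant in red cells, led the ranking by mean CPM. miR-122-5p stood at 24694, 442647 and 51432 CPM. It ranked 11, 1 and 4 in Control 1, Control 2 and Control 3, and its share had a 95% Wilson interval of 44.2% to 44.4% in Control 2, against 2.44% to 2.50% in Control 1. Its mean was 172924 ± 233969 CPM (SD, n = 3), an SD above the mean. miR-16-5p stood at 164614, 51413 and 178434 CPM, ranking first in Control 1 and Control 3 and behind miR-122-5p in Control 2. Its mean was 131487 ± 69690 CPM (SD, n = 3). The count of miR-122-5p was 0.150, 8.61 and 0.288 times that of miR-16-5p.

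Of the next in rank, miR-21-5p, found in most cells and plentiful in platelets, had 63203, 35588 and 66857 CPM and was lowest in Control 2. The 3 named next, of rank 4, 8 and 9 by mean CPM, varied less between libraries on library totals. miR-191a-5p, a platelet and leukocyte miRNA, had 43244, 44263 and 50142 CPM. miR-146a-5p, an NF-kappaB induced brake on innate immune signalling, had 29061, 30010 and 32024 CPM. miR-143-3p, a miRNA of smooth muscle and other mesenchymal cells, had 28732, 32614 and 28271 CPM. On library totals Control 2 lay between the others for miR-191a-5p and miR-146a-5p and just above them for miR-143-3p. Without miR-122-5p in the total the order of spread reversed. The SD of log2 CPM was then 0.08 for miR-21-5p, against 0.43 for miR-191a-5p, 0.45 for miR-146a-5p and 0.57 for miR-143-3p.

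Others among the 10 highest differed more between libraries than these 3 on library totals. This did not hold for all of them without miR-122-5p. The SD of log2 CPM was then 0.52 for both miR-199a-3p and let-7c-5p, below the 0.57 of miR-143-3p. It was 0.92 for miR-140-3p and 0.82 for miR-29a-3p. miR-199a-3p, a mesenchymal miRNA also found in platelets, had 62582, 17484 and 38803 CPM. miR-140-3p, from a cartilage-enriched gene, had 55282, 10298 and 52033 CPM. let-7c-5p, of the let-7 family that restrains growth genes, had 39029, 10922 and 24630 CPM. Control 2 was lowest for all 3. miR-29a-3p, which targets collagen mRNAs, differed in the other direction, with 22734 CPM in Control 1 against 40558 and 40916. Of the 10 most abundant in each library, 6 were shared by all 3 and 15 were found in at least 1. The remaining ones were let-7i-5p, let-7b-5p, miR-148a-3p, miR-223-3p and miR-192-5p.

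**Figure D1:**
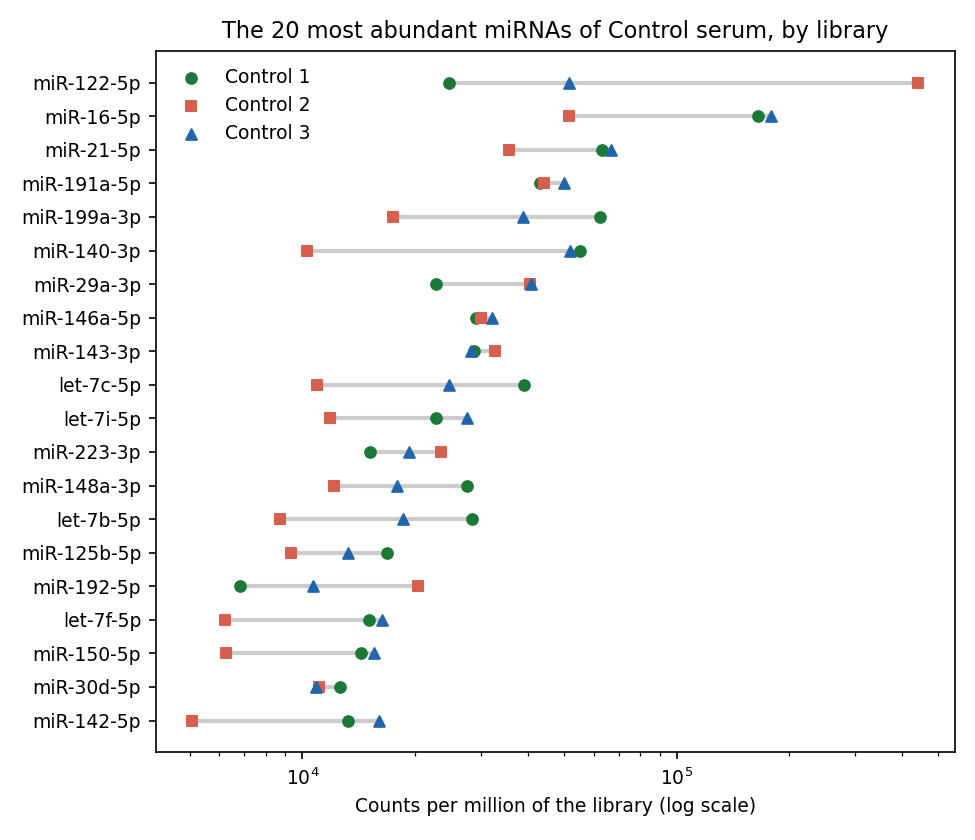
Levels of the 20 miRNAs with the highest mean CPM, on a log axis, with 1 point per Control library. miR-122-5p spans the widest range, from 24694 to 442647 CPM, while miR-146a-5p and miR-143-3p keep their points close together.

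Grouped by seed, the same few families held the counts. The 54 miRNAs without a unique matched sequence, miR-15a-5p among them, were placed in no family, so family shares leave them out. The 5 highest seeds held 42.7%, 62.3% and 45.9% of all counts, and the 10 highest 63.2%, 76.5% and 66.0%, out of 424 seeds. GGAGUGU belonged to miR-122-5p alone. The AGCAGCA family of miR-16-5p, miR-15b-5p, miR-322-5p, miR-195-5p and miR-497-5p held 16.8%, 5.37% and 18.3%, with miR-16-5p giving 97.5% of it. The GAGGUAG family (let-7 and miR-98-5p, 9 members) was shared out more evenly, at 12.8%, 4.68% and 10.7%, or 13.1%, 8.40% and 11.3% of the counts without miR-122-5p, and let-7c-5p was 26.4% of it. The AGCACCA family of miR-29a-3p, miR-29c-3p and miR-29b-3p held 2.72%, 5.06% and 4.86%.

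let-7 members differ by few bases, as shown by these 2 (seed in capitals).
let-7a-5p: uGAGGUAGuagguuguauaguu
let-7c-5p: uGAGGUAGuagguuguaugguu
They differ at 1 base, position 19 from the 5′ end. How the authors assigned reads between such members is not given in the sources used here, so the split within the family is uncertain. The muscle seed GGAAUGU raises the same point: miR-1-3p and miR-1b differ by few bases, and miR-206-3p shares their seed.
miR-1-3p: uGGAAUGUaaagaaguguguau
miR-1b: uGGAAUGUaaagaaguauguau
miR-206-3p: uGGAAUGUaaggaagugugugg

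The profile was sorted into 14 lists of miRNAs that do not overlap. Each is a set enriched in a tissue or cell type, except the let-7 seed family and the Dlk1-Dio3 cluster, a set of genomic neighbours. They hold 140 of the 567 miRNAs and 78.7%, 82.8% and 79.3% of counts. A list shows where a miRNA is known to be enriched, not where the serum copy came from, and a fall in the share of 1 tissue cannot be told apart from a rise in another. miR-122-5p alone lowers every other share in Control 2, so each share is given with all counts and then with miR-122-5p taken out of the total. Per-miRNA differences between Control 2 and the other libraries are log2 CPM differences, and over the 160 miRNAs with a mean of at least 100 CPM their median was -0.88. It was -0.09 without miR-122-5p, 0.12 with TMM scaling (edgeR's factors, which trim extreme miRNAs) and -0.0011 with DESeq2 size factors.

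The broad blood cell list, 9 miRNAs of red cells and their precursors such as miR-16-5p, miR-25-3p and miR-93-5p, was the largest share in Control 1 and Control 3. It held 19.1%, 6.54% and 20.8%, or 19.5%, 11.7% and 21.9% without miR-122-5p. miR-16-5p was 85.0% of it. miR-25-3p had 12838, 6478 and 13344 CPM and miR-93-5p 7221, 4329 and 9880 CPM. Both come from 1 host transcript and stood 1.52-fold apart in mean. All 9 were lowest in Control 2 on library totals, and 6 of 9 without miR-122-5p. Of the 160 miRNAs with a mean of at least 100 CPM, 115 and 76 were lowest there.

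The strict erythroid list was small: 4 miRNAs at 1.14%, 0.512% and 1.21%. miR-486 gave 90.9% of it, at 10497, 4725 and 10722 CPM. miR-451-5p, which Argonaute2 cuts without Dicer and which fills red cells, had only 682, 312 and 900 CPM. Without miR-122-5p the 3 shares were 1.16%, 0.919% and 1.27%. The usual haemolysis index, miR-451-5p over miR-23a-3p on the log2 scale, stood at -3.75, -4.58 and -2.81, so miR-451-5p was the rarer of the pair in all 3. With miR-16-5p in its place the ratio was positive, at 4.17, 2.78 and 4.82. Control 3 had the highest and Control 2 the lowest index in both forms. miR-144-5p and miR-144-3p, from the hairpin beside miR-451, were highest in Control 3, with 263 and 166 CPM against 134 and 47.8 in Control 1 and 41.0 and 44.4 in Control 2.

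Platelet and myeloid miRNAs held 12.9%, 11.0% and 14.4%, or 13.3%, 19.8% and 15.1% without miR-122-5p, where Control 2 moved from lowest to highest. Of this list 43.2% was miR-21-5p, which is found in most cells, so the share is not a measure of platelet and myeloid cells alone. The median difference of the list's 5 miRNAs in Control 2 was -0.07 on library totals and 0.71 to 0.92 under the other scalings. miR-223-3p, a myeloid and platelet miRNA, had 15171, 23424 and 19291 CPM and was highest in Control 2 even on library totals. Leukocyte miRNAs held 7.28%, 4.82% and 8.13%, or 7.47%, 8.64% and 8.57%, with the same change of order. This rested on few members, and miR-146a-5p was 45.0% of the list. Without miR-122-5p, 8 of the 10 were still lowest in Control 2 and 2 highest, with a median difference of -0.57. Of the 160 miRNAs with a mean of at least 100 CPM, 76 were then lowest in Control 2 and 71 highest. Behind miR-146a-5p came miR-150-5p of mature lymphocytes, at 14297, 6231 and 15504 CPM, and miR-142-5p of all blood cells, at 13217, 5071 and 16023 CPM. Both endothelial entries were arms of miR-126a, and the list held 1.54%, 0.770% and 1.95%, or 1.58%, 1.38% and 2.05% without miR-122-5p. miR-126a-3p had 11045, 6062 and 13855 CPM and miR-126a-5p 4377, 1634 and 5628 CPM.

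Liver miRNAs, 8 in the table, held 3.28%, 46.6% and 6.36% of counts, and miR-122-5p was 92.2% of the list. Even with it removed, the rest of the list held 0.829%, 4.25% and 1.28%. miR-192-5p, an epithelial miRNA plentiful in liver and gut, had 6800, 20415 and 10702 CPM. miR-194-5p, its neighbour in the genome, had 1172, 2502 and 1228 CPM. miR-802-5p, another liver miRNA, had 46.9, 351 and 111 CPM, and miR-122-3p had 37.0, 289 and 70.8 CPM. Each of the 8 was higher in Control 2 than in both others, under all 4 scalings tried. They are both arms of miR-122, miR-192, miR-194 and miR-802, and so not 8 separate observations. Of the 160 miRNAs with a mean of at least 100 CPM, Control 2 was highest for 30 on library totals. It was highest for 71 of these without miR-122-5p, 74 with DESeq2 size factors and 79 with TMM. For the 7 liver miRNAs with a mean of at least 10 CPM, a minimum that high values in Control 2 help to pass, the median difference was 2.27 on the log2 scale with library totals. With miR-122-5p out of the total it was 3.06, with DESeq2 size factors 3.14 and with TMM 3.26. On library totals it was 1.84 with miR-122-5p dropped from the list. With all 7 it was 2.89 against Control 1 alone and 1.66 against Control 3 alone. The member below a mean of 10 CPM, miR-194-3p, had 0.902, 5.12 and 2.60 CPM, which rest on 1, 6 and 4 counts.

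**Figure D2:**
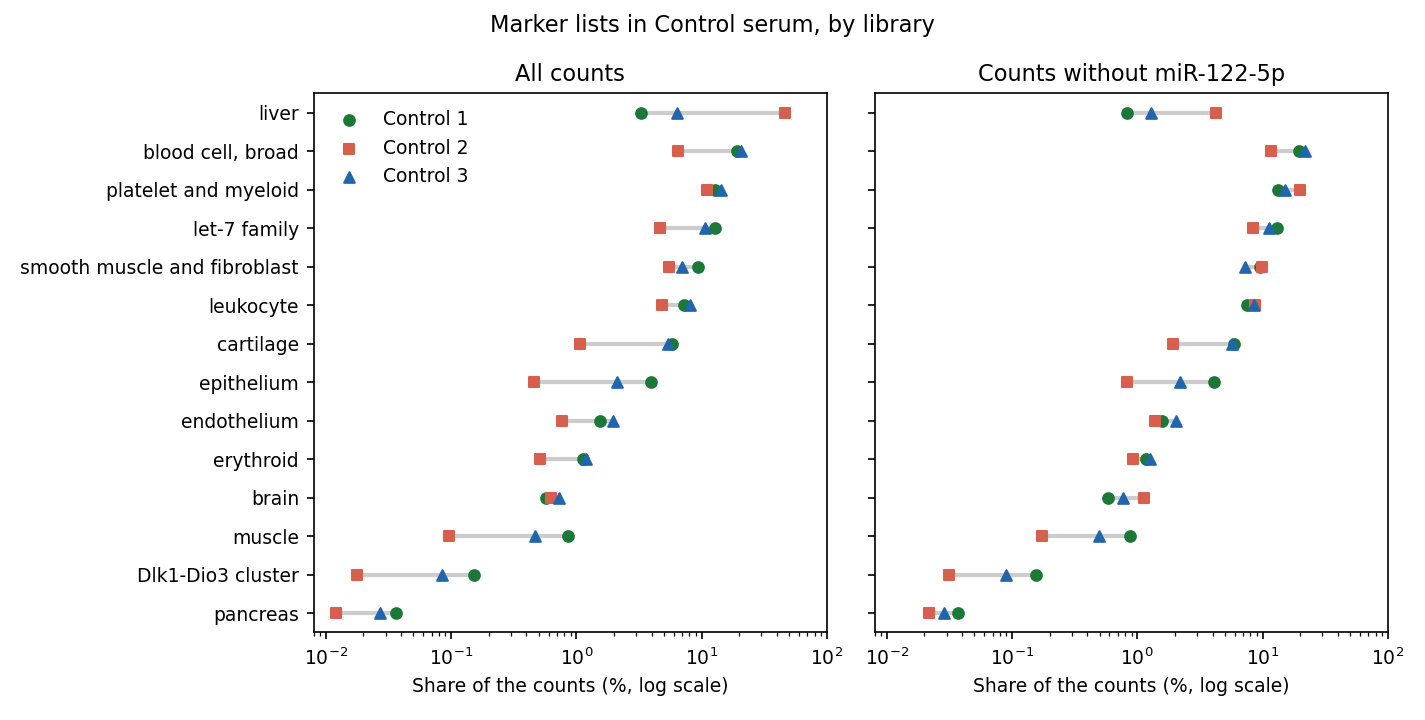
Share of counts of the 14 marker lists in each Control library, on a log axis, with all counts (left) and without miR-122-5p (right). The liver share in Control 2 reaches 46.6%. The epithelium, muscle, cartilage, Dlk1-Dio3, erythroid, broad blood cell, endothelium, pancreas and let-7 shares lie lowest in Control 2 in both panels.

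The shares of the epithelial, muscle, cartilage and Dlk1-Dio3 lists were lowest in Control 2, with all counts and without miR-122-5p. So were those of the erythroid, broad blood cell, endothelium, pancreas and let-7 lists. Among all members in the table, with no minimum level, Control 2 was the lowest library for 10 of 10 epithelial miRNAs and 4 of 4 of cartilage under all 4 scalings. It was lowest for 6 of 10 muscle miRNAs and highest for 1. For the Dlk1-Dio3 cluster it was lowest for 33 of 41 on library totals or without miR-122-5p, and for 32 with TMM or DESeq2 size factors. It was highest for 0 of them on library totals and for 1 under each other scaling. The rest were neither, with ties at 0 counts among them. The 4 cartilage miRNAs are both arms of miR-140 and miR-455. For comparison, of the 160 miRNAs with a mean of at least 100 CPM, Control 2 was lowest for 115 on library totals. It was lowest for 76 of them without miR-122-5p, 62 with TMM and 69 with DESeq2 size factors. On library totals the muscle proportion was below that of the 160. The epithelium list held 3.98%, 0.462% and 2.096%, or 4.08%, 0.829% and 2.21% without miR-122-5p. miR-203a-3p, an epidermal miRNA that curbs the stem cell factor p63, had 17884, 1771 and 8195 CPM. miR-205, of basal epithelium, had 4988, 931 and 2679 CPM. miR-200a-3p and miR-141-3p, members of the miR-200 family that keeps epithelial cells epithelial, had 2697, 354 and 1927 CPM and 2640, 264 and 1940 CPM. miR-200c-3p had 2377, 151 and 1089 CPM. Control 1 was the highest library for 9 of the 10, against 70 of the 160 on library totals. Their median difference in Control 2 was -2.73 on library totals and -1.94 without miR-122-5p.

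The muscle list held 0.857%, 0.096% and 0.470%, or 0.879%, 0.173% and 0.495% without miR-122-5p. miR-206-3p, the skeletal muscle miRNA, had 4580, 563 and 2504 CPM. miR-1-3p, of heart and skeletal muscle, had 2339, 213 and 1378 CPM, and miR-1b, which stands outside the list, had 3425, 304 and 2481 CPM. miR-133a-3p, transcribed with miR-1, had 1544, 165 and 740 CPM. The Control 1 to Control 3 ratio of the list was 1.83, close to the 1.90 of epithelium and the 1.80 of the Dlk1-Dio3 list. The Dlk1-Dio3 list covers the imprinted cluster transcribed from the maternal chromosome. It held only 0.152%, 0.018% and 0.084%, or 0.156%, 0.032% and 0.089% without miR-122-5p, with miR-382-5p at 338, 49.5 and 175 CPM and miR-127-3p at 231, 25.6 and 139 CPM.

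Cartilage held 5.76%, 1.08% and 5.43%, or 5.90%, 1.93% and 5.72% without miR-122-5p, and rested almost wholly on miR-140-3p, 95.9% of the list, which is not limited to cartilage. The smooth muscle and fibroblast list held 9.34%, 5.47% and 6.93%, or 9.58%, 9.82% and 7.31% without miR-122-5p, so Control 2 ceased to be lowest. miR-145-5p, from the same cluster as miR-143-3p, had 1369, 3998 and 1588 CPM, and miR-143-5p 83.0, 231 and 113 CPM. Control 2 was highest for both. miR-199a-3p was lowest there, so this list did not move as a unit.

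Brain miRNAs held 0.573%, 0.630% and 0.731%, or 0.588%, 1.13% and 0.770% without miR-122-5p. Of the list, 94.97% was miR-128-3p, which is not limited to brain, at 5329, 6145 and 6892 CPM. miR-9a-5p and miR-218a-5p, more restricted to the brain, had 47.8, 14.5 and 29.2 CPM and 247, 70.9 and 242 CPM. miR-124-3p, the defining neuronal miRNA, had 0 counts in all 3 libraries, which allows up to 2.71, 2.56 and 1.95 CPM. Pancreas miRNAs were at 0.036%, 0.012% and 0.027%, or 0.037%, 0.022% and 0.028% without miR-122-5p, nearly all miR-375-3p of the islet and gut, with 352, 116 and 266 CPM.

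The 5 miRNAs highest in Control 2 against the mean log2 CPM of the others were miR-122-5p (12.4-fold), miR-122-3p (5.61-fold), miR-802-5p (4.83-fold), miR-29c-3p (2.80-fold) and miR-145-5p (2.71-fold). The 5 lowest were miR-184 (20.4-fold), miR-141-5p (15.8-fold), miR-200c-3p (10.6-fold), miR-1b (9.57-fold) and miR-503-5p (9.36-fold). All folds in this paragraph are on library totals and depend on that scale. For Control 2 the log2 difference of miR-184 was -4.35 on library totals and -3.35 with TMM. That of miR-503-5p was -3.23 and -2.24, and that of miR-29c-3p 1.49 and 2.48. miR-29c-3p had 1316, 6822 and 4512 CPM. Its seed partner miR-29b-3p had 3111, 3207 and 3205 CPM, nearly flat on library totals only. The SD of log2 CPM of miR-29b-3p was 0.03 there, 0.47 without miR-122-5p in the total and 0.59 with TMM. For miR-29c-3p it was 1.23, 1.60 and 1.72. miR-184, an epithelial miRNA of skin and cornea, had 12517, 334 and 3706 CPM and was also the one highest in Control 1 (11.2-fold). Next in Control 1 were miR-141-5p, miR-200c-3p, miR-149-5p and miR-183-5p. In Control 3 miR-144-5p stood highest (3.53-fold), and its other leading miRNAs were miR-503-5p, miR-298-5p, miR-7a-5p and miR-503-3p. The 5 lowest in Control 1 were miR-122-5p (6.11-fold), miR-29c-3p (4.22-fold), miR-802-5p (4.18-fold), miR-122-3p (3.83-fold) and miR-497-5p (2.25-fold). The 5 lowest in Control 3 lay closer to the other libraries, from 2.03-fold for miR-122-5p to 1.52-fold for miR-23b-3p, with miR-365-3p, miR-676 and miR-31a-5p between.

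**Figure D3:**
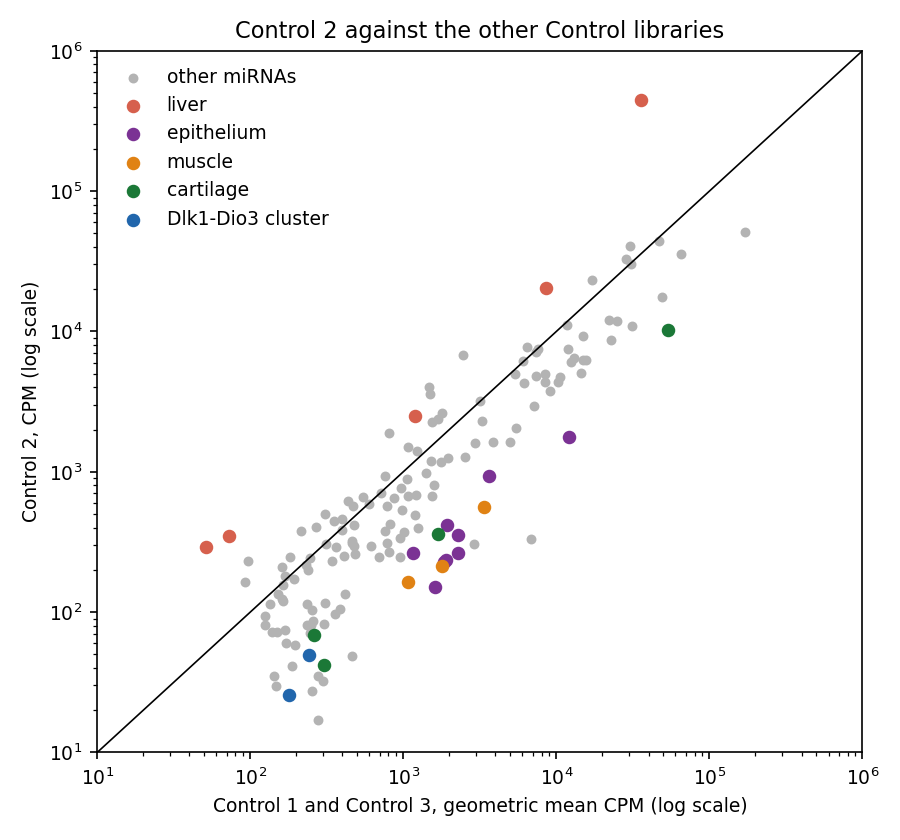
CPM in Control 2 against the geometric mean CPM of Control 1 and Control 3 on log axes, 1 point per miRNA with a mean of at least 100 CPM, with members of 5 lists in colour and the line of equal levels. Liver points lie above that line, and epithelial, muscle, cartilage and Dlk1-Dio3 points below it.

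Counted over the 160 miRNAs with a mean of at least 100 CPM, Control 2 was the lowest library for 115 and the highest for 30 on library totals. Without miR-122-5p in the total it was lowest for 76 and highest for 71. On library totals, Control 1 and Control 3 were within 2-fold of each other for 151 of 160 miRNAs (94.4%). Control 2 was within 2-fold of them for 79 (49.4%) and 82 (51.2%). With TMM these counts were 153 (95.6%), 88 (55%) and 104 (65%). The Pearson correlation of log2 CPM was 0.978 for Control 1 with 3, 0.856 for 1 with 2 and 0.909 for 2 with 3, and Spearman's rho was 0.973, 0.844 and 0.886. These describe 3 pairs of libraries that share miRNAs, not independent points. No libraries repeated each other: the chi-square per degree of freedom between libraries was 181 or more.

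**Figure D4:**
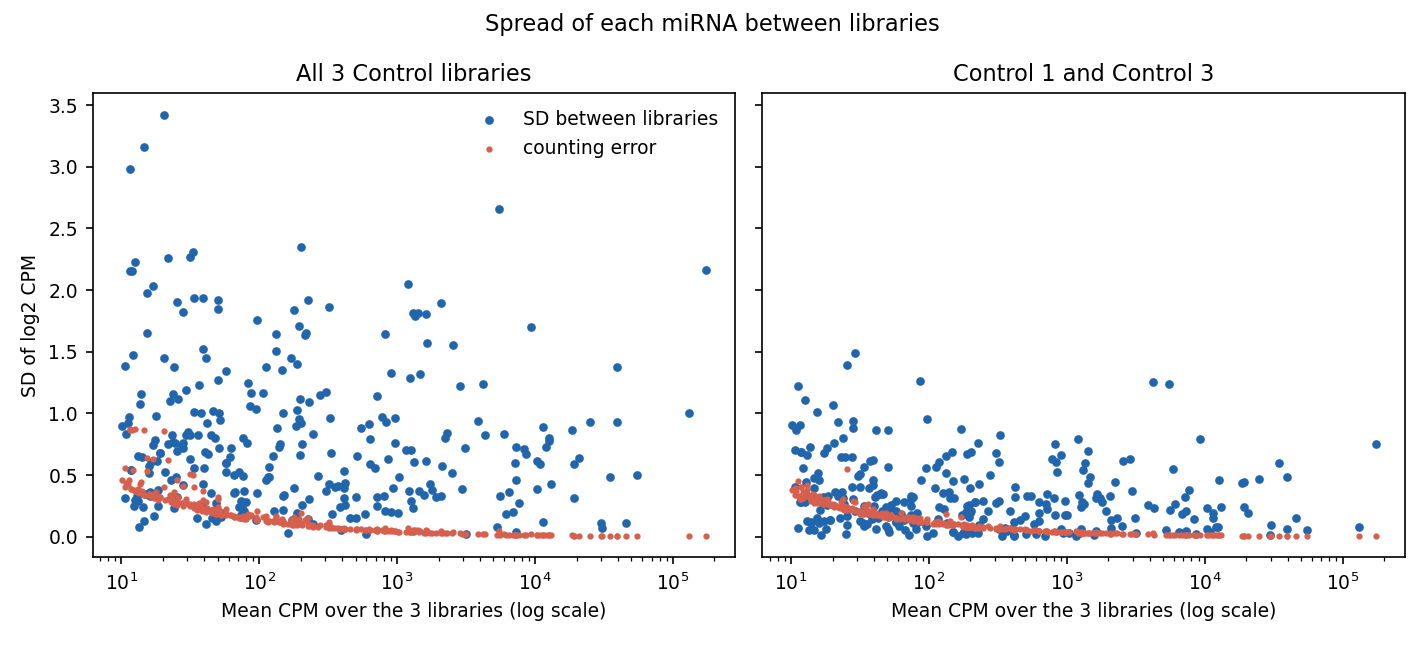
SD of log2 CPM against mean CPM on a log axis, 1 blue point per miRNA with a mean of at least 10 CPM, for all 3 libraries (left) and Control 1 and 3 (right), with the SD that counting error alone gives in red. On library totals, the median SD over 3 libraries is 0.64 at 100 to 1000 CPM, where counting error gives 0.09.

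The median spread exceeded counting error at all levels. On library totals the median SD of log2 CPM was 0.72 for the 133 miRNAs at 10 to 100 CPM and 0.64 for 86 at 100 to 1000. It was 0.61 for 51 at 1000 to 10000 and 0.62 for 23 above 10000. Counting error alone gave 0.28, 0.09, 0.03 and 0.01. From Control 1 and Control 3 only, the medians were 0.29, 0.25, 0.26 and 0.19. With TMM scaling the medians over all 3 libraries were 0.57, 0.54, 0.60 and 0.40. edgeR's common biological coefficient of variation over the 260 miRNAs with at least 10 counts in all libraries was 0.464. With 1 library left out, the miRNAs with at least 10 counts in the remaining ones were used. It was 0.253 over 304 miRNAs without Control 2, 0.483 over 262 without Control 1 and 0.562 over 261 without Control 3.

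The most even miRNAs depended on the scaling. On library totals the 10 with the lowest SD of log2 CPM among 97 with a mean of at least 500 CPM were miR-28-3p (0.02), miR-29b-3p (0.03), miR-24-3p (0.04), miR-146a-5p (0.07), miR-30a-5p (0.08), miR-143-3p (0.11), miR-191a-5p (0.11), miR-30d-5p (0.12), miR-30a-3p (0.15) and miR-328a-3p (0.18). None of these 10 was among the lowest 10 with TMM, DESeq2 size factors or without miR-122-5p. miR-103-3p, miR-148b-3p, miR-186-5p, miR-21-5p and miR-92a-3p were in the lowest 10 under all of these 3 scalings and ranked 37 to 42 of 97 on library totals. Apart from miR-21-5p they were named after their values were seen. The least even 10 held up better, with 5, 8 and 8 of 10 shared: miR-184 (2.66), miR-122-5p (2.16), miR-200c-3p (2.05), miR-1b (1.90), miR-1-3p (1.81), miR-183-5p (1.81), miR-141-3p (1.80), miR-429 (1.79), miR-203a-3p (1.70) and miR-133a-3p (1.64).

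Arm use was compared in hairpins with both arms in the table and at least 50 CPM over both, 123 of 197 pairs. The 5p arm was higher in all 3 libraries in 69 (56.1%), the 3p arm in 51 (41.5%), and in 3 the higher arm differed. Arm choice was mostly lopsided: the higher arm held a median of 98.3% of a pair's CPM, over 90% in 94 pairs and under 75% in 11. Of all counts, those on named 5p arms were 60.9%, 76.8% and 64.6%, or 59.9%, 58.3% and 62.6% without miR-122-5p. In 101 pairs with both sequences, the higher arm began with U in 58 and the lower in 15.

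The 5 most one-sided pairs among the 20 most abundant were miR-16, miR-146a, miR-29a, miR-21 and let-7i. For miR-16 the 5p arm had a mean of 131487 CPM and the 3p arm 2.98 CPM. Of the 5, miR-29a had a dominant 3p arm, with the 5p arm at 3.14 CPM. miR-122 was nearly as lopsided, with 5p shares of 99.85%, 99.93% and 99.86%, highest in Control 2. miR-140 gave mostly the 3p arm, with 5p shares of 2.94%, 3.38% and 3.20%. miR-142 was 5p-rich at 70.8%, 63.2% and 63.1%, and miR-126a 3p-rich with 5p shares of 28.4%, 21.2% and 28.9%.

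The precursors of miR-122 and miR-140, which use opposite arms, and of miR-144, whose higher arm differed between libraries, are shown with both mature arms in capitals, the 5p arm first.
Mir122: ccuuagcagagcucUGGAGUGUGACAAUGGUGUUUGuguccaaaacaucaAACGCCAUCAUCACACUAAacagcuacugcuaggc
Mir140: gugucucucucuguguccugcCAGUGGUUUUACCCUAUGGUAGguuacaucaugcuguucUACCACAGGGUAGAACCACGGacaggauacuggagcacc
Mir144: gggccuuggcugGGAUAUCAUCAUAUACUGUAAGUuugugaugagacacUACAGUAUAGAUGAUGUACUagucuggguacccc

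The 5 pairs nearest to equal were miR-455, miR-181c, miR-542, miR-144 and miR-503. The 5p share of miR-455 was 54.6%, 37.7% and 52.4%, of miR-542 47.0%, 37.9% and 37.8%, and of miR-503 60.0%, 58.2% and 65.0%. miR-144 gave 73.6%, 48.0% and 61.3% 5p, and miR-181c 29.1%, 47.1% and 52.4%. In these and miR-455 the higher arm differed between libraries. miR-181c and miR-144 were low, at 63.6 and 232 CPM for both arms together. In Control 2 the 5p and 3p arms of miR-144 had only 48 and 52 counts. Those of miR-181c had 16 and 39, 41 and 46, and 54 and 49 counts in Control 1, 2 and 3. Its change of higher arm thus rests on few counts. The range of the 5p share between libraries had a median of 1.34 percentage points over the 123 pairs, and was above 10 in 15. In 13 pairs with at least 100 counts on both arms in each library, the SD of the log2 ratio of the arms had a median of 0.37. That of their sum was 0.49 on library totals, a scale on which the ratio does not depend. The ratio had the lower SD in only 6 of the 13, and in 61 of the 123 pairs.

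**Figure D5:**
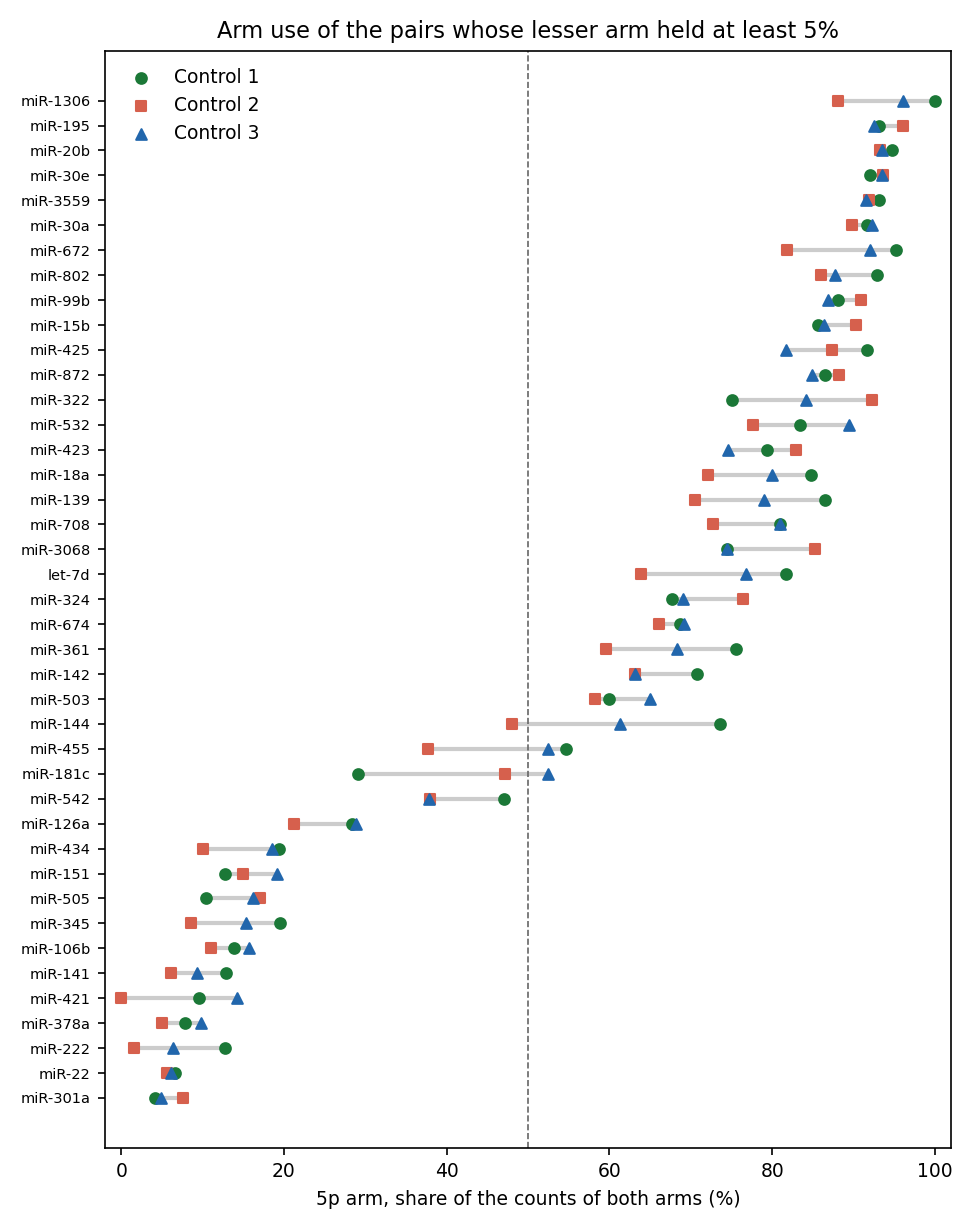
5p share of the counts of both arms in each Control library, for the 41 pairs whose lesser arm held at least 5% of the mean, ordered by that share. A dashed line marks equal use, and miR-144, which crosses it, spans 48.0% to 73.6%.

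Hairpins lying within 10 kb of each other on 1 strand form a cluster and are usually cut from 1 transcript. Neighbours were found with the GRCr8 annotation, and no coordinates are given because the files are from another build. Within the 41 such clusters, miRNAs often differed widely in level. The higher arm of miR-191a (45883 CPM) was 56.9-fold above that of miR-425 (806 CPM), and miR-143-3p was 12.9-fold above miR-145-5p. Members were closer for miR-141-3p and miR-200c-3p (1.34-fold) and for miR-1-3p and miR-133a-3p (1.60-fold). miR-206-3p was 61.9-fold above miR-133b-3p. That fold is uncertain, because miR-133b-3p differs from miR-133a-3p only in its last base and how reads were assigned is not given. let-7c-5p, which RefSeq places at more than 1 locus, was 29.1-fold above miR-99a-5p.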

How the data were processed

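Small RNA from rat serum was sequenced as single-end Illumina reads of 50 bases, and the 3 Control libraries of the series' 9 are used. The authors deposited raw read counts for each mature miRNA, as whole numbers. Per the submitters' processing notes the genome build was mRatBN7.2. The aligner, the counting tool and read filters were not given in the labels or headers, nor was whether the molecular identifiers of the library kit were used. Counts in the series matrix and in the single files differed at 0 values. Groups and numbers came from the sample titles.

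CPM used each library's total. Alternatives scaled with TMM (edgeR 4.0.16), DESeq2 1.42.0 size factors, or totals without miR-122-5p, and changed the minimum, the pseudocount (0.5 CPM) or the libraries used. Log2 values are log2(CPM + 0.5). Variation came from edgeR's intercept-only fit in R 4.3.3, checked on simulated data. No comparison was tested, so there are no p-values. Shares carry Wilson intervals at 95%, and a count of 0 allows 3 counts.

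Named miRNAs follow 1 rule: the 10 highest by mean CPM and any others among a library's 10 highest, the 3 highest of each list, the 5 most one-sided abundant and 5 most equal arm pairs with those that differ between libraries, the 10 lowest and highest in spread from 500 CPM, and the 5 highest and lowest of each library. Others, such as seed, arm and cluster partners and list members of lower rank, were chosen after their values were seen. The members and lists were chosen with earlier results of these data known. Lists were written from general knowledge.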

Additional observations from a re-analysis of the deposited data

How the results depend on the processing

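Over 22 results and 103 alternatives, 92 values stayed within 1 SD of the value over libraries, and 11 moved further. Leaving out 1 library gave 63 of the alternatives, and 61 of these stayed within 1 SD. A mean over 3 libraries cannot move by 1 SD when 1 is left out, so for means this is no sign of stability. The mean liver share went from 18.8% to 4.82% without Control 2 and still counted as within 1 SD. Among the 11 that moved further, 1 changed sign, the haemolysis index with another numerator. The number of miRNAs with at least 10 counts was 305 ± 33.6 (SD, n = 3), and 458 at a minimum of 1 count. Without miR-122-5p in the total, the mean platelet and myeloid share went from 12.8% to 16.1% and the brain share from 0.645% to 0.829%. The share of hairpins with more 5p counts went from 57.5% at 50 CPM to 55.5% at 10 CPM, 54.1% at 500 CPM and 52.6% with no minimum. The median SD of log2 CPM was 0.62 on library totals and 0.54 with TMM. It was 0.49 with DESeq2 size factors and 0.50 without miR-122-5p in the total. Control 2 decided the spread. With 1 library left out, the median SD of log2 CPM, 0.62 with all, ranged from 0.24 without Control 2 to 0.74, and the biological coefficient of variation, 0.464 with all, from 0.253 to 0.562. DESeq2 dispersions gave 0.316, but as the square root of the median over miRNAs, a measure unlike edgeR's common value. The liver excess of Control 2 was 2.27 with library totals and 3.26 with TMM. On library totals it was 1.84 with miR-122-5p dropped from the list. It was 2.89 against Control 1 alone and 1.66 against Control 3 alone. The mean haemolysis index was -3.71, -6.31 with miR-191a-5p as reference and 3.92 with miR-16-5p as numerator. No paired analysis was possible because only 1 group is described. Below about 10 CPM, levels rest on a handful of counts.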
